A study of Mus musculus with 10 samples.

Results

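Extracellular nucleotide and adenosine handling was followed through 9 genes in 3 populations of mouse endothelial cells. The genes were the rows of the count table whose symbol was Entpd1, Entpd2, Enpp1, Enpp3, Nt5e, Adora2a, Adora2b, P2rx4 or Slc29a1, which gave 9 of 23284 gene symbols. All 9 passed the filter on low counts. The populations were 2 kinds of lymph node endothelium, lymphatic (LN-LEC, 4 libraries) and blood (LN-BEC, 3 libraries), and the lymphatic endothelium of the diaphragm (D-LEC, 3 libraries). All came from C57BL/6 (B6) mice of 6 to 8 weeks, and the labels name no treatment and no engineered allele. The LN populations came from inguinal, axillary, brachial, cervical and mesenteric nodes that were put together, so that differences between node sites cannot be seen. Cells carrying CD45 were depleted, and CD31+ cells were then sorted on podoplanin (PDPN), the surface protein that separates LEC from BEC. Each library was a pool of several mice, and p-values therefore measure the spread between pools.

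Cells release ATP, which acts outside the cell as a danger signal on the P2X and P2Y receptors. Surface enzymes then break it down in steps, from ATP to ADP, to AMP and finally to adenosine, which calms immune cells through its own receptors. Removal of ADP by surface enzymes of endothelium is known for keeping platelets inactive, because ADP activates platelets. Adenosine is taken back into cells by nucleoside transporters, where it is either returned to AMP or broken down to inosine.

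The libraries held 22429940 to 48906070 counted fragments, where 3 fragments correspond to 0.0613 to 0.134 CPM (counts scaled to the library total). A pair of libraries stood apart from the others of their population. Chi-square per gene was 314 and 391 between LN-BEC replicate 3 and the other LN-BEC libraries, which differed from each other by 26.6, and 119 to 155 between LN-LEC replicate 4 and the other LN-LEC libraries, which differed by 10.5 to 19.0. Without both, the calls of the 9 genes changed for Enpp1 between LN-LEC and LN-BEC, which was lost (edgeR adjusted p = 0.11), and for P2rx4 between LN-LEC and D-LEC, which was gained (edgeR adjusted p = 0.016), and for no other comparison. Markers of each population were in the libraries that carry its label. The mean normalized count of Prox1, the transcription factor that sets lymphatic identity, was 8100 ± 354 (SD, n = 4) in LN-LEC, 7946 ± 1125 (SD, n = 3) in D-LEC and 224 ± 118 (SD, n = 3) in LN-BEC. Flt1, the VEGF receptor 1 gene of blood endothelium, was at 14643 ± 876 in LN-BEC, 197 ± 47.1 in LN-LEC and 61.0 ± 24.1 in D-LEC. Of the 7 lymphatic markers, only Ccl21a was listed at 0 in every library. A normalized count is the number of fragments divided by the DESeq2 size factor of the library, and it is used below for comparisons of 1 gene between populations.

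Among the 5 enzymes of the set, each population was led by another gene: Entpd2 in LN-LEC, Entpd1 in LN-BEC and Enpp3 in D-LEC. Entpd1 (chr19:40734284-40816092 on the plus strand of mm9) encodes CD39, which removes phosphates from both ATP and ADP and yields AMP. Entpd2 (chr2:25251394-25256843, plus strand) encodes a related enzyme that acts mainly on ATP and so yields ADP. Enpp3 (chr10:24493620-24556001, minus strand) encodes CD203c, a pyrophosphatase that splits ATP into AMP and pyrophosphate. In the mm9 gene annotation the exons of these 3 genes share no base with those of any other gene. The 250 bases before the outermost annotated start of each are shown because these genes led the 5 enzymes in the 3 populations. The windows of Entpd2 and Enpp3 were identical to RefSeq windows of GRCm38.p6, whereas that of Entpd1 equalled neither of its 2 RefSeq windows. Capitals mark, on either strand, the core letters of the GC element (GGGCGG), the CCAAT element, the TATA element (TATAAA) and the hypoxia-response element (ACGTG). The sequences were read from the mm9 genome, 5′ to 3′ on the strand of the gene, at chr19:40734034-40734283 for Entpd1, chr2:25251144-25251393 for Entpd2 and chr10:24556002-24556251 for Enpp3.

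Entpd1: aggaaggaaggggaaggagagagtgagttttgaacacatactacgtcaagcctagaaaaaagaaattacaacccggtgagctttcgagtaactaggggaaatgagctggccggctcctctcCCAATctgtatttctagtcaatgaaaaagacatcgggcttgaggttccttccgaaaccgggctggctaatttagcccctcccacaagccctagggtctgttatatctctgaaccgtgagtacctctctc

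Entpd2: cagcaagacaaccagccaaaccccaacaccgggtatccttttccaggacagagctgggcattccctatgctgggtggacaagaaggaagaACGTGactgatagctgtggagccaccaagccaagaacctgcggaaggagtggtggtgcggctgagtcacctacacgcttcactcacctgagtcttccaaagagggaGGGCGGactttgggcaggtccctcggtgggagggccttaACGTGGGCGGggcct

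Enpp3: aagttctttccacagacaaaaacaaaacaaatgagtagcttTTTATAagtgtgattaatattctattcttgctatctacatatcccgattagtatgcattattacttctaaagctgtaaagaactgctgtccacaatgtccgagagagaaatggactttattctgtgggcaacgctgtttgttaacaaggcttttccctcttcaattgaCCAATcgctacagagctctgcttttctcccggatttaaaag

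The window before Entpd1 held CCAAT once and none of the other motifs, and 48.4% of its bases were G or C. The window before Entpd2 held GGGCGG 2 times and ACGTG 2 times, with a G and C content of 59.2%, and the last ACGTG and the last GGGCGG shared a base. The window before Enpp3 held CCAAT once and TATAAA once, 209 bases before the annotated start, and its G and C content was 36.8%. Over 15357 windows of the same length, one for each tested gene that could be placed, the median G and C content was 58.8%, with quartiles of 51.6% and 66.4%. GGGCGG was found in 54.2% of these windows, CCAAT in 35.2%, TATAAA in 8.2% and ACGTG in 19.9%. Among the 9 genes the motifs were found in 4, 3, 1 and 3 windows, respectively. These matches describe the letters of the windows and were not related to the measured levels.

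Entpd1 was the most unequal of the 9 genes between populations. Its normalized counts were 7398, 7246 and 6188 in LN-BEC, 104, 57.1, 79.2 and 88.6 in LN-LEC, and 18.9, 25.05 and 24.8 in D-LEC. The lowest LN-BEC library lay far above every LEC library, and the LN-LEC libraries all lay above the D-LEC libraries. Against LN-LEC the level in LN-BEC was 83.1-fold higher, a log2 difference (LN-LEC minus LN-BEC) of -6.38 with a standard error of 0.16 (edgeR quasi-likelihood test, Benjamini-Hochberg adjusted p = 1.2e-11). Against D-LEC it was 298-fold higher (edgeR adjusted p = 5.0e-12). LN-LEC exceeded D-LEC by 1.84 on the log2 scale, with a standard error of 0.20 (edgeR adjusted p = 5.4e-06). In bulk RNA, fewer cells that carry a transcript and less of it per cell cannot be told apart.

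The Entpd1 level of the LEC populations stood beside levels of 7 blood endothelial markers that ranged widely. LN-LEC held 1.18 ± 0.281% of the mean LN-BEC level of Entpd1, and D-LEC held 0.330 ± 0.0499%. The same percentages were 1.35% and 0.416% for Flt1, 1.48% and 0.233% for Nrp1, and 1.04% and 0.485% for Sox17. The order was the other way for Vwf (1.997% and 2.59%) and Notch4 (2.27% and 4.82%) and also for Emcn (3.77% and 36.9%) and Podxl (20.7% and 92.6%). Glycam1, a gene of high endothelial venules, stood at 3.00% in LN-LEC and 0.0141% in D-LEC. The other listed genes of these venules also ranged widely. In the same order they stood at 1.13% and 0.102% (Fut7), 13.8% and 3.88% (Selp), and 42.3% and 0.0371% (Madcam1). Chst4 had the opposite order, with 0.888% and 2.04%. The summed normalized count of all 7 blood endothelial markers was 6753 to 11292 in LN-LEC, 35944 to 40789 in D-LEC and 121749 to 128302 in LN-BEC, and no marker was at 0 in every library of a population. Emcn and Podxl made up most of the D-LEC sum. The part of blood endothelial RNA in the LEC levels of Entpd1 was not tested.

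**Figure D1:**
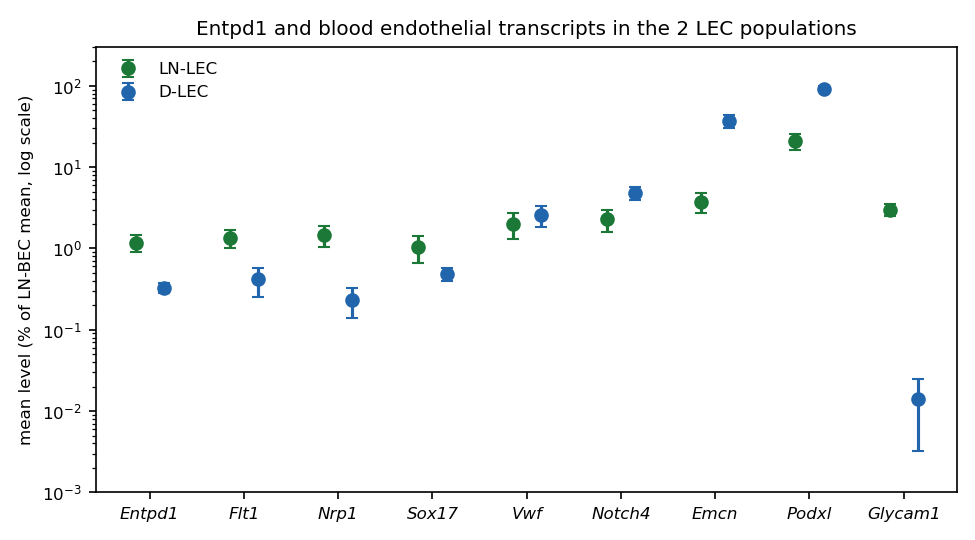
Mean level of Entpd1, 7 blood endothelial markers and the high endothelial venule gene Glycam1 in LN-LEC (green) and D-LEC (blue), in percent of the LN-BEC mean on a log axis; bars are the SD over 4 and 3 libraries. Entpd1 stood at 1.18% in LN-LEC and 0.330% in D-LEC, near the values of Flt1, Nrp1 and Sox17, while Emcn and Podxl reached 36.9% and 92.6% in D-LEC.

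Entpd2 had another order, with LN-LEC above LN-BEC and LN-BEC above D-LEC, which was lowest for both genes. In normalized counts, its libraries were at 1103, 1187, 946 and 1075 in LN-LEC, 461, 495 and 576 in LN-BEC, and 109.7, 83.2 and 126 in D-LEC. No library of 1 population reached the range of another. The level in LN-LEC was 10.2-fold that of D-LEC, a log2 difference of 3.36 with a standard error of 0.15 (edgeR adjusted p = 8.1e-10), and 2.14-fold that of LN-BEC, a log2 difference of 1.09 with a standard error of 0.13 (edgeR adjusted p = 1.4e-05). LN-BEC exceeded D-LEC 4.79-fold (edgeR adjusted p = 3.6e-08). LN-BEC held 47.4% of the LN-LEC level of Entpd2 and 2.77% of that of Prox1. The other detected lymphatic markers were highest in D-LEC and are therefore given as mean normalized counts in LN-BEC and LN-LEC. These were 2326 and 16210 for Flt4, 1702 and 60820 for Lyve1, and 622 and 18853 for Pdpn. They were 76.7 and 3030 for Reln, and 1145 and 33693 for Mmrn1. The part of lymphatic RNA in the LN-BEC level of Entpd2 was not tested.

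Enpp3 was led by the diaphragm. In normalized counts, the D-LEC libraries were at 2317, 2363 and 2856, the LN-BEC libraries at 586, 390.0 and 463, and the LN-LEC libraries at 15.6, 20.3, 32.8 and 54.1. The 3 ranges did not overlap, and the LN-LEC libraries differed among themselves more than 3-fold. D-LEC exceeded LN-LEC 73.6-fold, a log2 difference (LN-LEC minus D-LEC) of -6.20 with a standard error of 0.31 (edgeR adjusted p = 6.4e-08), and LN-BEC 5.22-fold (edgeR adjusted p = 3.7e-05). LN-BEC exceeded LN-LEC 14.1-fold (edgeR adjusted p = 2.8e-06).

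CD203c is also known as a surface marker of basophils and mast cells, and transcripts of these cells were therefore read beside it, from a list of 7 genes chosen after the values of Enpp3 had been seen. Their summed normalized count was 7.88, 387 and 579 in LN-BEC replicates 1, 2 and 3, 5.65 to 17.6 in LN-LEC and 2.48 to 7.57 in D-LEC. Enpp3 was at 586, 390.0 and 463 in the same LN-BEC libraries. Of the 7 genes, 5 were at 0 in every D-LEC library, 1 in every LN-LEC library and 1 in every LN-BEC library. Markers of skeletal muscle and of mesothelium, which adjoin the lymphatics of the diaphragm, were highest in D-LEC. The 6 muscle genes summed to 938 to 1341 in D-LEC against at most 13.8 in LN-LEC and 16.6 in LN-BEC, and the 5 mesothelial genes to 587 to 1817 against at most 77.3 and 131. No gene of either list was at 0 in every D-LEC library. The part of mast cells, basophils, muscle or mesothelium in the Enpp3 levels of any population was not tested.

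Enpp1 and Nt5e were the low members among the enzymes. Enpp1 (chr10:24361217-24431908, minus strand), the relative of Enpp3 known for making extracellular pyrophosphate, is its direct neighbour, with 61711 bases between them. Its normalized counts were 22.0, 6.35, 13.6 and 25.1 in LN-LEC, 38.5, 25.9 and 70.4 in LN-BEC, and 32.8, 17.0 and 17.4 in D-LEC. The LN-BEC libraries lay just above those of LN-LEC, by 2.57-fold (edgeR adjusted p = 0.039), while D-LEC overlapped with both. The call between LN-LEC and LN-BEC was lost when any of 5 libraries was left out, namely LN-LEC replicates 1, 2 or 3 or LN-BEC replicates 1 or 3, with edgeR adjusted p from 0.051 to 0.20. The ratio of Enpp3 to Enpp1 per length of exon was 80.9 to 188 in D-LEC, 7.54 to 17.4 in LN-BEC and 0.808 to 3.66 in LN-LEC, so that these neighbouring genes did not share a pattern.

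Nt5e (chr9:88222447-88266927, plus strand) encodes CD73, which makes adenosine from AMP. The libraries had normalized counts of 110.3, 142 and 159.6 in LN-BEC, 36.3, 22.9, 15.8 and 22.0 in LN-LEC, and 16.4, 16.03 and 19.0 in D-LEC. The LN-BEC libraries stood above all LEC libraries, whereas the LN-LEC range enclosed the D-LEC range. The level in LN-BEC was 5.62-fold that of LN-LEC (edgeR adjusted p = 1.2e-05) and 7.95-fold that of D-LEC (edgeR adjusted p = 5.6e-06). LN-LEC differed from D-LEC by 0.50 on the log2 scale, with a standard error of 0.33, and did not pass the test (edgeR adjusted p = 0.23). CD39 and CD73 act one after the other, and their transcripts were far apart in LN-BEC: per length of exon, Entpd1 was 33.1 to 57.2 times as high as Nt5e there, against 2.13 to 4.26 times in LN-LEC and 0.984 to 1.33 times in D-LEC.

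**Figure D2:**
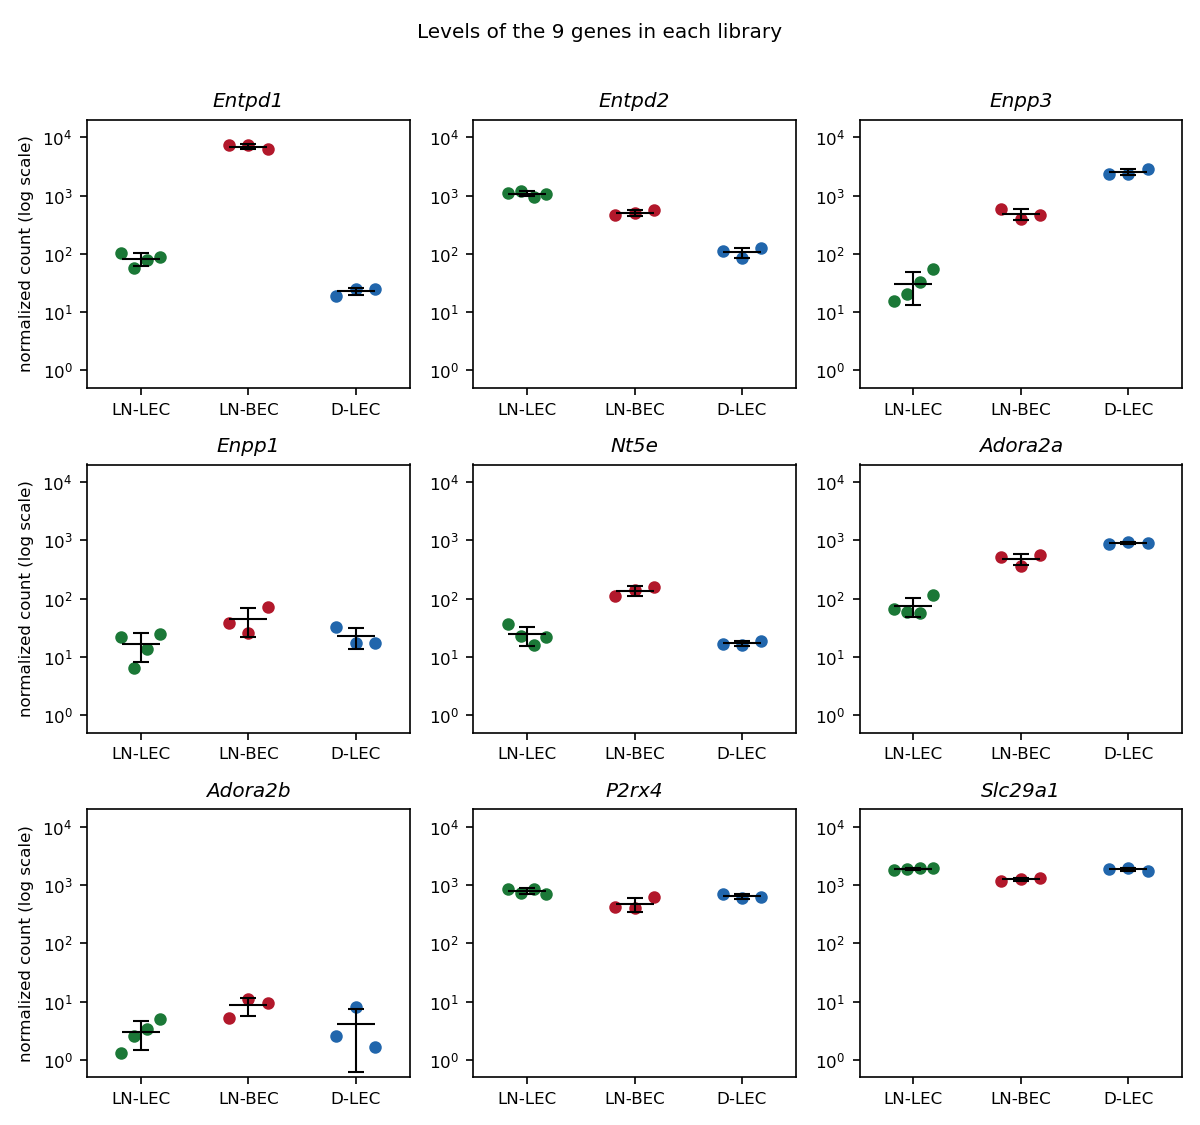
Normalized counts (log axis, the same range in every panel) of the 9 genes in LN-LEC (green, 4 libraries), LN-BEC (red, 3 libraries) and D-LEC (blue, 3 libraries); dots are libraries, and the cross and bars are mean ± SD. Entpd1 was highest in LN-BEC (6188 to 7398), Entpd2 in LN-LEC (946 to 1187) and Enpp3 in D-LEC (2317 to 2856), while Slc29a1 differed little.

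Compared per length, as FPKM (fragments scaled for exon length and for the total of the library), 1 enzyme made up most of the 5 enzyme transcripts in each population. Entpd2 held 92.9 ± 1.84% (SD, n = 4) of the summed FPKM of Entpd1, Entpd2, Enpp1, Enpp3 and Nt5e in LN-LEC, with libraries between 91.1% and 95.5%. Entpd1 held 77.2 ± 3.15% (SD, n = 3) in LN-BEC, with libraries between 73.6% and 79.6%, followed by Entpd2 with 12.4% and Enpp3 with 7.95%. Enpp3 held 92.5 ± 0.956% (SD, n = 3) in D-LEC, with libraries between 91.6% and 93.5%. The leader of these 5 was the same in every library of a population. The sum itself was 63.4 ± 8.77 FPKM in LN-BEC, 32.3 ± 4.12 in D-LEC and 20.5 ± 1.70 in LN-LEC, without overlap between the populations. Nt5e held 1.81% of the sum in LN-BEC, 1.12% in LN-LEC and 0.497% in D-LEC.

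**Figure D3:**
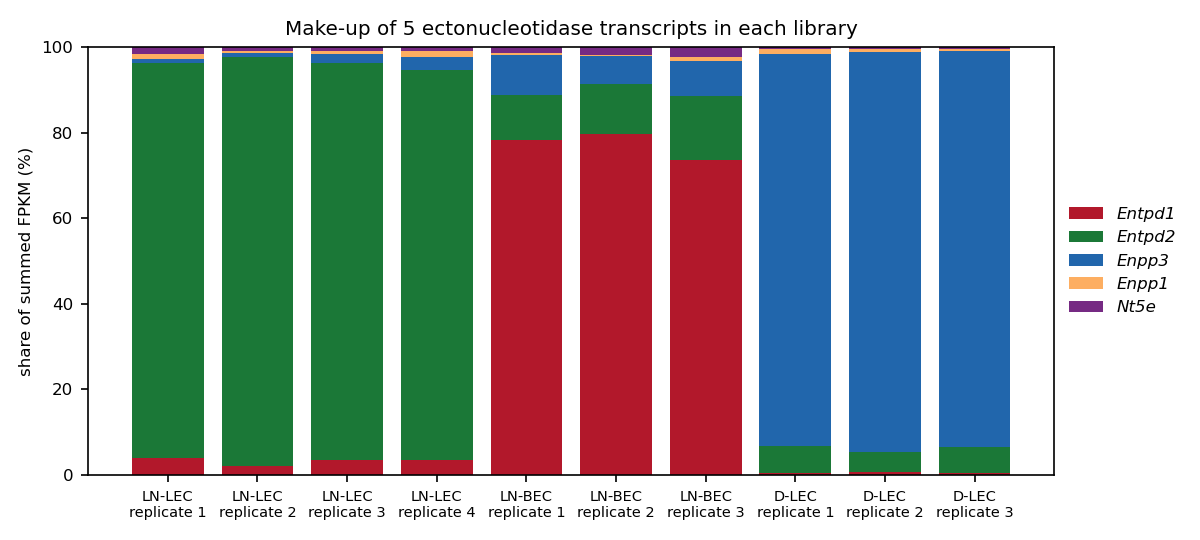
Share of each of 5 ectonucleotidase genes in their summed FPKM (percent, vertical axis) in each of the 10 libraries. Entpd2 filled 91.1% to 95.5% of the LN-LEC bars, Entpd1 73.6% to 79.6% of the LN-BEC bars and Enpp3 91.6% to 93.5% of the D-LEC bars.

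Of the adenosine receptors, Adora2a was the main one measured. Adora2a (chr10:74779688-74797533, plus strand) encodes the receptor that raises cyclic AMP when adenosine binds and through which adenosine calms many leukocytes. Its normalized counts were 867, 924 and 911 in D-LEC, 513, 369 and 558 in LN-BEC, and 67.4, 59.7, 56.5 and 113 in LN-LEC. The 3 ranges were separate, and the LN-LEC libraries were lowest throughout. D-LEC exceeded LN-LEC 11.6-fold, a log2 difference (LN-LEC minus D-LEC) of -3.53 with a standard error of 0.22 (edgeR adjusted p = 5.3e-08). LN-BEC exceeded LN-LEC 6.19-fold (edgeR adjusted p = 8.9e-07), and D-LEC exceeded LN-BEC 1.87-fold (edgeR adjusted p = 0.0039).

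Adora2b (chr11:62062486-62079954, plus strand) encodes its relative, which answers to higher adenosine concentrations. It was close to the limit of detection, with 1, 2, 3 and 8 fragments in LN-LEC, 6, 13 and 9 in LN-BEC and 2, 8 and 2 in D-LEC. No comparison of Adora2b passed the test, with edgeR adjusted p of 0.15 (LN-LEC against LN-BEC), 0.26 (D-LEC against LN-BEC) and 0.79 (LN-LEC against D-LEC), and no difference was detectable at this depth. Per length of exon, Adora2a was 83.9 to 401 times as high as Adora2b in D-LEC, 23.9 to 71.1 times in LN-BEC and 12.1 to 37.8 times in LN-LEC. The other adenosine receptor genes, Adora1 and Adora3, fall outside the rule for named genes and are given because they complete the family. The mean normalized count of Adora1 was 5.79 ± 5.82 in LN-LEC, 28.8 ± 33.3 in LN-BEC, where replicate 3 alone held 67.2, and 0.275 ± 0.477 in D-LEC. That of Adora3 was below 2 in every population, at 0.883, 0.350 and 1.28.

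P2rx4 and Slc29a1 were high in all 3 populations and differed by less than 2-fold between any of them. P2rx4 (chr5:123157566-123179051, plus strand) encodes the P2X4 receptor, a cation channel opened by ATP that senses shear stress in endothelium. Its normalized counts were 869.8, 717, 862 and 708 in LN-LEC, 413, 396 and 624 in LN-BEC, and 711, 597 and 617 in D-LEC. The LN-LEC libraries lay above all LN-BEC libraries, by 1.67-fold (edgeR adjusted p = 0.0015), and overlapped with D-LEC (1.25-fold, edgeR adjusted p = 0.10). D-LEC against LN-BEC passed narrowly at 1.34-fold (edgeR adjusted p = 0.047), although LN-BEC replicate 3 lay within the D-LEC range, and the call was lost in 11 of 18 alternatives, including the removal of any D-LEC library, of LN-BEC replicates 1 or 2, or of LN-LEC replicates 1, 2 or 3. Without LN-BEC replicate 3 that call was kept (edgeR adjusted p = 0.0013), and LN-LEC also passed as higher than D-LEC (0.32 on the log2 scale, edgeR adjusted p = 0.030).

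Slc29a1 (chr17:45722149-45736552, minus strand) encodes ENT1, the carrier that lets adenosine cross the membrane in both directions. The libraries had normalized counts of 1846, 1871, 1946 and 1998 in LN-LEC, 1924, 1932 and 1762 in D-LEC, and 1180.0, 1269 and 1301 in LN-BEC. Both LEC populations lay above LN-BEC and overlapped each other. LN-LEC exceeded LN-BEC 1.55-fold (edgeR adjusted p = 1.8e-05) and D-LEC exceeded LN-BEC 1.49-fold (edgeR adjusted p = 5.9e-05). LN-LEC differed from D-LEC by 0.05 on the log2 scale, with a standard error of 0.08 (edgeR adjusted p = 0.59).

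Ordered by mean FPKM, the leading genes of LN-LEC were Slc29a1 (26.6 ± 0.883), Entpd2 (19.1 ± 1.88) and P2rx4 (13.6 ± 1.81), each apart from the next. The other 6 genes were below 1 FPKM on average, and each neighbour in their order overlapped with the next. LN-BEC was led by Entpd1 (49.1 ± 8.51) and Slc29a1 (14.9 ± 0.939). Entpd2 (7.74), P2rx4 (6.97), Adora2a (5.55) and Enpp3 (5.04) followed, with each overlapping the next, and then Nt5e (1.12), Enpp1 (0.400) and Adora2b (0.138), each apart from the next. In D-LEC the order was Enpp3 (29.9 ± 3.79), Slc29a1 (25.4 ± 1.17), Adora2a (11.9 ± 0.282) and P2rx4 (10.8 ± 1.18), of which the last pair overlapped. Entpd2 followed with 1.85 ± 0.404, and Enpp1, Entpd1 and Nt5e lay between 0.161 and 0.233 with overlapping neighbours. Adora2b was last in all 3 populations.

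Taken over the 9 genes, LN-LEC against D-LEC gave 4 calls (edgeR adjusted p under 0.05) where 45.7% of the 15371 tested genes were called, so that the share of the 9 was near the background. Entpd1 and Entpd2 were higher in LN-LEC (24% of tested genes were called in that direction), and Enpp3 and Adora2a in D-LEC (21.7%). LN-LEC against LN-BEC gave 8 calls against a background of 38.2%, of which Entpd2, P2rx4 and Slc29a1 were higher in LN-LEC (19.8% of tested genes), and Entpd1, Enpp1, Enpp3, Nt5e and Adora2a in LN-BEC (18.4%). D-LEC against LN-BEC gave 7 calls against a background of 48%, of which Enpp3, Adora2a, P2rx4 and Slc29a1 were higher in D-LEC (22.4% of tested genes), and Entpd1, Entpd2 and Nt5e in LN-BEC (25.6%). At least 5-fold differences were 3 of 9 between LN-LEC and D-LEC, 4 of 9 between LN-LEC and LN-BEC, and 3 of 9 between D-LEC and LN-BEC, against backgrounds of 12.1%, 9.82% and 15.2%. Libraries of the groups did not overlap for 4, 9 and 6 of the 9 genes in the same order of comparisons, against 50%, 44.9% and 56% of tested genes. The median absolute log2 difference of the 9 genes was 0.50, 1.36 and 1.07, beside 0.51, 0.43 and 0.57 over all tested genes. The 3 comparisons share their libraries in pairs and are not independent of each other. The 9 genes were chosen with earlier results of these data known, and the tested genes include those with a mean normalized count near 1. The counts beside the background are therefore a description only.

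**Figure D4:**
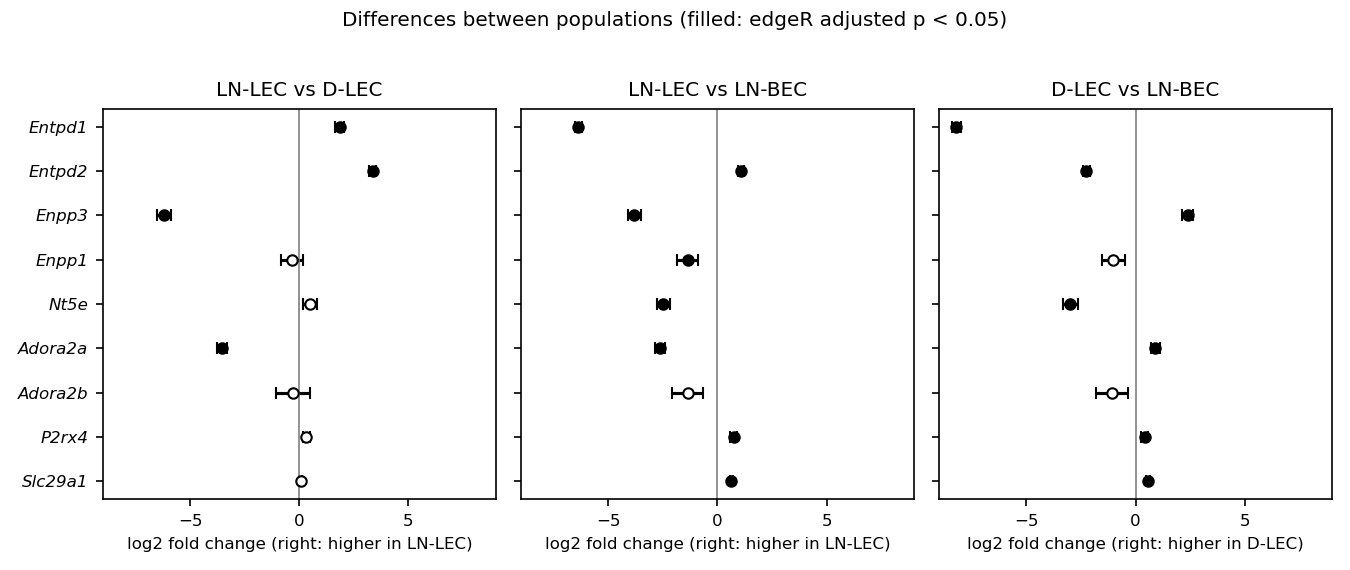
Log2 fold change of the 9 genes in the 3 comparisons (points, with bars of 1 standard error); filled points had an edgeR adjusted p under 0.05, and points right of 0 were higher in the population named first. Entpd1 lay farthest left against LN-BEC (-6.38 and -8.22), and Enpp3 farthest left in LN-LEC against D-LEC (-6.20).

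A further 45 genes of the same pathway were read from lists by role, and 41 of them passed the filter on low counts. Enpp7 had no fragment in any library, and Slc28a1, Panx2 and Panx3 had at most 2. LN-LEC against D-LEC gave 24 calls (58.5% of the 41, beside 45.7% of all tested genes), 15 higher in LN-LEC and 9 in D-LEC. LN-LEC against LN-BEC gave 27 (65.9%, beside 38.2%), with 13 higher in LN-LEC and 14 in LN-BEC. D-LEC against LN-BEC gave 23 (56.1%, beside 48%), with 7 higher in D-LEC and 16 in LN-BEC. Some called genes were near the limit of detection, such as P2rx1, with a mean normalized count of 3.42 in LN-LEC and 0 in D-LEC. Over all tested genes, 24% were called higher in LN-LEC and 21.7% in D-LEC in the first comparison. The shares were 19.8% in LN-LEC and 18.4% in LN-BEC in the second, and 22.4% in D-LEC and 25.6% in LN-BEC in the third. The median absolute log2 differences of the 41 genes were 1.29, 1.36 and 1.33 in the same order, beside 0.51, 0.43 and 0.57 over all tested genes. These lists were also chosen with earlier results of these data known.

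Of 13 other genes listed with the ectonucleotidases, 12 were tested. Whether the product of each acts on nucleotides outside the cell was not examined. Between LN-LEC and LN-BEC, 3 were higher in LN-LEC and 4 in LN-BEC. The former were Entpd4 (1.86-fold), Entpd5 (1.79-fold) and Enpp5 (1.66-fold), and the latter Enpp2, Enpp6, Alpl and Acpp. Between D-LEC and LN-BEC, Entpd5 and Enpp5 were higher in D-LEC, and the same 4 genes and Enpp4 in LN-BEC. Between the LEC populations, 5 were higher in LN-LEC (Entpd4, Entpd6, Enpp2, Enpp4 and Acpp) and 1, Enpp6, in D-LEC. In the order of comparisons given here, 58.3%, 58.3% and 50% of the 12 genes were called. The shares over all tested genes were 38.2%, 48% and 45.7%, so that the share between the LEC populations was near the background. Entpd4, Entpd5, Entpd6, Enpp4, Enpp5 and Cant1 fall outside the rule for named genes and were named after their values had been seen. Some of these genes stood above the 5 enzymes of the set per length of exon: Enpp4 had a mean of 79.0 FPKM in LN-LEC against 58.0 in LN-BEC and 45.0 in D-LEC, Enpp2 had 120 in LN-LEC and 668 in LN-BEC, and Cant1 had 29.2 in LN-LEC, where Entpd2 had 19.1. Enpp2 encodes autotaxin, a secreted enzyme of the same family that mainly makes lysophosphatidic acid. Its normalized count was 76561 ± 5832 in LN-BEC, 11864 ± 290.1 in LN-LEC and 451 ± 80.6 in D-LEC, so that LN-BEC exceeded LN-LEC 6.38-fold (edgeR adjusted p = 5.0e-10) and LN-LEC exceeded D-LEC 26.8-fold (edgeR adjusted p = 1.5e-11). Alpl, the tissue-nonspecific alkaline phosphatase that can also remove phosphate from AMP, was at 337, 251 and 309 in LN-BEC and at most 9.07 in any LEC library. Acpp, an acid phosphatase with a membrane form that acts on AMP, was at 103 ± 41.5 in LN-BEC, 15.4 ± 13.98 in LN-LEC and 0.668 ± 1.16 in D-LEC. Enpp6 was at 112.5 ± 54.6 in LN-BEC, 2.07 ± 1.59 in LN-LEC and 19.1 ± 15.8 in D-LEC. In all 4 genes LN-BEC was above both LEC populations in the edgeR test.

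The nucleotide receptors fell on different sides. P2rx7, a channel opened by high concentrations of ATP whose gene lies next to P2rx4 with 16124 bases between them, was at 2042 ± 245 in LN-BEC, 1071 ± 107 in D-LEC and 716 ± 128 in LN-LEC, and all 3 comparisons passed the test. The order of its population means was the reverse of that of P2rx4. For P2rx4, however, LN-LEC against D-LEC did not pass the test (edgeR adjusted p = 0.10), and D-LEC against LN-BEC passed narrowly (edgeR adjusted p = 0.047). P2ry2 (a receptor for ATP and UTP), P2ry6 (for UDP) and P2rx3 (for ATP) were highest in LN-BEC, with means of 209, 78.1 and 104 against 12.7, 7.77 and 25.1 in LN-LEC and 9.12, 2.70 and 3.87 in D-LEC. P2ry1, an ADP receptor, and P2rx2, an ATP-gated channel, were highest in LN-LEC. P2ry1 was at 266 ± 31.6 in LN-LEC against 85.5 ± 26.3 in LN-BEC and 74.3 ± 8.91 in D-LEC. Its level in LN-LEC was 3.15-fold that of LN-BEC (edgeR adjusted p = 3.4e-05) and 3.64-fold that of D-LEC (edgeR adjusted p = 1.2e-05). P2rx2 was at 401 ± 133, 132 ± 25.8 and 55.1 ± 18.7 in the same order of populations, and both of its differences from LN-LEC passed.

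Of the transporters, Slc28a2, a concentrative carrier that draws purine nucleosides into the cell with sodium, was highest in LN-BEC. Its normalized counts were 1766, 1379 and 2155 there, 16.5 to 48.0 in LN-LEC and 4.01 to 8.26 in D-LEC. The level in LN-BEC was 46.6-fold that of LN-LEC (edgeR adjusted p = 7.1e-09). Slc29a3, the lysosomal relative of ENT1, was at 858 ± 61.8 in LN-LEC against 669 ± 67.2 in LN-BEC and 434 ± 39.97 in D-LEC. Slc29a4, a plasma membrane relative, was at 149 ± 11.5, 58.3 ± 19.4 and 165 ± 46.2 in the same populations. In Slc29a4, as in Slc29a1, both LEC populations were above LN-BEC in the test and did not pass against each other (edgeR adjusted p = 0.70).

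All 5 genes listed under breakdown and salvage of adenosine were higher in D-LEC than in LN-LEC, where 21.7% of tested genes were called in that direction. Ada, which turns adenosine into inosine, had normalized counts of 165, 162 and 163 in D-LEC and 45.4, 43.2, 50.9 and 48.4 in LN-LEC, and D-LEC was 3.42-fold higher (edgeR adjusted p = 2.2e-06). Adk, the kinase that returns adenosine to AMP, was at 940.0 ± 125 in D-LEC and 379 ± 32.7 in LN-LEC, which was 2.44-fold higher (edgeR adjusted p = 2.4e-05). The purine-breakdown enzyme Xdh was 1.83-fold higher, the CD26 peptidase gene Dpp4 3.20-fold, and Pnp, which falls outside the rule for named genes and splits inosine, 1.29-fold. LN-BEC did not stand on one side of LN-LEC for these genes: Ada, Dpp4 and Xdh were higher in LN-BEC and Adk and Pnp lower. All 5 differences passed the test, where 38.2% of tested genes did. Between D-LEC and LN-BEC, Adk and Pnp were higher in D-LEC in the test. Ada (edgeR adjusted p = 0.080), Dpp4 (0.79) and Xdh (0.072) did not pass. In that comparison 40% of the 5 genes were called, beside 48% of all tested genes.

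The routes by which ATP and pyrophosphate leave cells differed most between the LEC populations in Panx1 and Ank. Panx1, which forms a membrane channel that releases ATP, was at 433, 420.2, 354 and 372 in LN-LEC, 246, 289.7 and 278 in LN-BEC, and 31.5, 37.1 and 27.3 in D-LEC. The ranges were separate, and LN-LEC exceeded D-LEC 12.5-fold (edgeR adjusted p = 1.0e-09). Ank, whose product exports ATP and pyrophosphate, was at 7432, 7904 and 8379 in D-LEC, 2051 to 2554 in LN-LEC and 673 to 804 in LN-BEC. D-LEC exceeded LN-LEC 3.29-fold (edgeR adjusted p = 6.0e-09) and LN-BEC 10.4-fold (edgeR adjusted p = 4.3e-11).

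**Figure D5:**
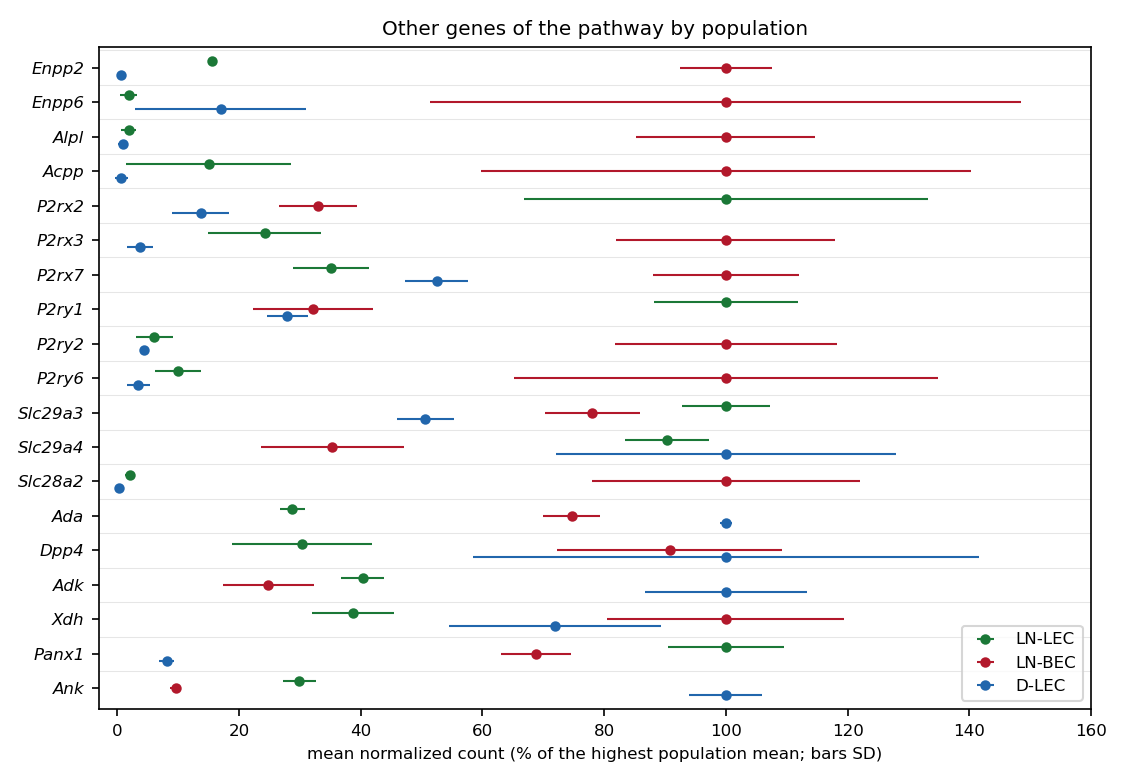
Mean normalized count of the 19 named other pathway genes in LN-LEC (green), LN-BEC (red) and D-LEC (blue), as a percentage of the highest population mean of each gene; bars are the SD over 4, 3 and 3 libraries. By mean level, LN-BEC was highest for 10 of them, including Enpp2, Alpl, P2ry2 and Slc28a2, and D-LEC for 5, including Ada, Adk and Ank. Some of these leads did not pass the edgeR test: Ada, Dpp4 and Xdh between D-LEC and LN-BEC, and Slc29a4 between D-LEC and LN-LEC.

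Genes of like pattern were sought among 10843 tested genes, by the root mean square difference between log2 profiles over the 10 libraries after each was centred on its own mean. The nearest gene was Rasgef1a for Entpd1 (0.25 log2 units, followed by Flt1 at 0.27), Tns3 for Entpd2 (0.17), Fbln2 for Adora2a (0.19), Bcam for Nt5e (0.29), Chst14 for P2rx4 (0.087) and Ide for Slc29a1 (0.062). Enpp3 had no equally near gene, with Stmn2 at 0.56, Emp1 at 0.69 and Nov at 0.75. Stmn2 had mean normalized counts of 7233 ± 783 in D-LEC, 1008 ± 169 in LN-BEC and 96.9 ± 24.5 in LN-LEC. Tns3 had 4777 ± 101 in LN-LEC against 2097 ± 231 in LN-BEC and 388 ± 109 in D-LEC. These distances describe levels in the same libraries, which share depth and scaling.

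Several members are also used by leukocytes, and leukocyte transcripts were measured in the same libraries. The summed normalized count of 5 pan-leukocyte genes, which include Ptprc, was 1081 to 1615 in LN-LEC, 1274 to 1577 in LN-BEC and 30.6 to 90.8 in D-LEC, and none of the 5 was at 0 in every library of a population. The LN-LEC and LN-BEC ranges of the sum overlapped, but its genes did not all follow it. Cd53 had a mean of 1012 in LN-LEC against 386 in LN-BEC, whereas Ptprc (40.3 against 285), Cd52 (57.1 against 344) and Laptm5 (23.4 against 92.3) were higher in LN-BEC in the edgeR test. The means of Coro1a were 133 and 321 and did not pass (edgeR adjusted p = 0.064). The summed genes of pericytes and smooth muscle were 5447 to 6947 in LN-BEC, 3140 to 5181 in LN-LEC and 183 to 339 in D-LEC, and those of fibroblasts and reticular cells 1893 to 8254, 4385 to 8276 and 2367 to 6299. The part of these cells in the levels of the 9 genes was not tested.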

How the data were processed

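The authors trimmed reads with Fastx-trimmer, aligned them with STAR to the mm9 build and used featureCounts 1.4.4 to count the fragments that fell on the exons of a gene symbol. The deposited values are these raw counts, without normalization. Only pairs with both ends mapped were counted, without regard to strand, and those with several alignments or several genes were dropped. RNA had been amplified (Ovation RNA-Seq System V2), which can change the relation between RNA and fragments from gene to gene. A Length column deposited by the authors gives the exon bases of each gene.

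From the counts, levels were computed as counts divided by DESeq2 1.42.0 size factors, and as FPKM with the Length column where genes were compared with each other. The 15371 genes tested had a mean normalized count of at least 1 in at least 1 population, and 3761 predicted genes, RIKEN clones and EST names were left out. Tests used edgeR 4.0.16 in R 4.3.3 (TMM, estimateDisp, robust quasi-likelihood fit over all 10 libraries with 1 mean for each population, F test for each comparison), with Benjamini-Hochberg adjustment over all genes tested and a threshold of 0.05. The fit was tested on simulated data that gave every gene and library the same spread. That setting holds no library that stands apart, so it cannot show how the fit handles such libraries here. The libraries held 22429940 to 48906070 fragments, and chi-square per gene between libraries of a population was 10.5 to 42.1 apart from LN-BEC replicate 3 and LN-LEC replicate 4, which stood apart at 119 to 391, so that precision rests on the spread between libraries and no library was a copy of another. Groups came from the source name of each sample. Replicate numbers follow the order of the records and pair nothing.

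The 9 genes, the pathway lists and the marker lists were chosen with earlier results of these data known, and the list for mast cells and basophils was added after the values of Enpp3 had been seen. Other pathway genes were named with an adjusted p under 0.05 and at least 2-fold in 1 comparison and a mean normalized count of at least 50 in 1 population. Genes of like pattern had a mean of at least 100 in 1 population. Upstream windows were read from the NCBIM37 (mm9) genome with Python 3.11.15, and those of Nt5e, Entpd2, Enpp3 and Adora2b were identical to RefSeq windows of GRCm38.p6. Alternatives were 2 other scalings, DESeq2, 2 other filters, a fit without the robust option, a fit of only the populations compared, removal of each library in turn, and removal of LN-BEC replicate 3 together with LN-LEC replicate 4.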

Additional observations from a re-analysis of the deposited data

How the results depend on the processing

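Of the log2 differences of the 9 genes under the alternatives, 458 kept their direction and their side of the threshold, 17 lost the call, 3 gained one and 2 changed sign. The sign changes were in differences that never passed: Enpp1 between LN-LEC and D-LEC was 0.0072 without D-LEC replicate 1 (edgeR adjusted p = 1.0), within -0.64 to 0.0072 on leaving out single libraries, and Adora2b was 0.67 without D-LEC replicate 2 (edgeR adjusted p = 0.58), within -0.69 to 0.67. The calls lost were Enpp1 between LN-LEC and LN-BEC in 6 settings, which include the removal of LN-BEC replicate 3 together with LN-LEC replicate 4 (edgeR adjusted p = 0.11), and P2rx4 between D-LEC and LN-BEC in 11 (log2 difference 0.31 to 0.66 over all settings, adjusted p 0.00087 to 0.16). P2rx4 between LN-LEC and D-LEC gained a call in 3 settings, with edgeR adjusted p of 0.045 when only these populations were fitted, 0.030 without LN-BEC replicate 3 and 0.016 without both libraries. The cause was not tested. Over the settings, the 9 genes gave 4 to 5, 7 to 8 and 6 to 7 calls in the order LN-LEC against D-LEC, LN-LEC against LN-BEC and D-LEC against LN-BEC. With a filter of at least 1 FPKM, Enpp1 and Adora2b were not tested. No paired analysis was possible because the labels give no replicate numbers that the populations share. Depth limits Adora2b and Enpp1, with at most 13 and 67 fragments in a library.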

Other observations

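Values of the other marker lists, read in the same libraries, belong to no comparison above. The 5 genes of high endothelial venules summed to 2083946 to 2837337 normalized counts in LN-BEC, 58081 to 85597 in LN-LEC and 257 to 783 in D-LEC. The 5 B cell genes summed to 932 to 1394 in LN-BEC, 710.1 to 1475 in LN-LEC and 140.0 to 169 in D-LEC, and the 6 T cell genes to 364 to 581, 250.2 to 284 and 1735 to 2315. The D-LEC sum of the T cell list was nearly all Cd2. The myeloid list, of which 6 of 7 symbols were in the table, summed to 346 to 509 in LN-BEC, 267 to 362 in LN-LEC and 498 to 882 in D-LEC. The platelet list summed to 8569 to 11939 in LN-LEC, 1797 to 1993 in LN-BEC and 158 to 321 in D-LEC, and in LN-LEC this was mostly Itga2b.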
